A study of Homo sapiens with 2 samples.

Results

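The 50 serine and threonine tRNA genes listed in the count tables of an hTrmt13 CLIP-seq experiment are described here, 28 for serine and 22 for threonine, out of 549 tRNA genes among 741078 listed features. They were taken by name (tRNA-Ser or tRNA-Thr in rows of the tRNA biotype), so no measured value chose them, and the 2 serine lookalike features (names starting tRX) were left out. In a gene name the third field is the anticodon, the fourth the isodecoder, a number shared by genes with the same mature sequence, and the fifth the gene copy. The 50 genes made up 8 anticodon families and 40 isodecoders. CLIP-seq isolates a protein with its crosslinked RNA through an antibody and sequences the RNA. The material was MDA-MB-231, an established human breast carcinoma line with no treatment named in the labels, in 1 group of 2 replicates, with 0 control libraries analysed here. Whether the 2 replicates came from separate cultures is not stated in the labels, so each SD may hold technical spread only, and shares describe what was recovered and not an enrichment.

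Transfer RNAs carry an amino acid to the ribosome and read the codon through their anticodon. Serine tRNAs belong to the class with a long variable arm, whereas threonine tRNAs have a short one. The seryl-tRNA synthetase recognises its tRNAs mainly by that arm and not by the anticodon, which lets serine tRNAs read codons of both serine codon boxes. In both isotypes a genomic A at the first anticodon base is deaminated to inosine. The yeast relative of hTrmt13, Trm13, adds a methyl group to the ribose of an acceptor-stem nucleotide in glycine, histidine and proline tRNAs. Serine and threonine tRNAs are not among those yeast substrates.

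The sequences of 2 members could be read in RefSeq's windows around the starts of neighbouring genes (GRCh38.p14), where they were found by tRNA shape (paired acceptor, anticodon and T arms on either strand). This shape with anticodon AGT or TGT occurred in 2 of 35116 such windows, or 0.00570%. They are shown because tRNA-Thr-AGT-1-3 (chr19:33667963-33668036 on hg19, plus strand) is 1 of 3 copies whose counts are compared below, and tRNA-Thr-TGT-6-1 (chr5:180618687-180618758 on hg19, minus strand) belongs to the TGT family that led these genes. Capitals mark the anticodon. The window ended before the last bases of tRNA-Thr-AGT-1-3, so 72 of its 74 bases are shown, and tRNA-Thr-TGT-6-1 is shown whole at 72 bases.
tRNA-Thr-AGT-1-3: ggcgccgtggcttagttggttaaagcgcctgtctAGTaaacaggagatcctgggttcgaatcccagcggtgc
tRNA-Thr-TGT-6-1: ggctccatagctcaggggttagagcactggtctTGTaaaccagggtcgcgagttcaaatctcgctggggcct

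The anticodon stood at bases 35 to 37 of the first and at bases 34 to 36 of the second. Aligned to each other, the 2 stretches shared 52 of 76 columns, or 68.4%. The 72 bases of tRNA-Thr-AGT-1-3 occurred without a change in 1 transcript of GENCODE release 29, a transcript of CTC1, the gene that encloses the copy tRNA-Thr-AGT-1-2 in the count tables.

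Each library had 1 table of read counts for each mate of its read pairs (R1 and R2). Depth in R1 was 27907799 counts for replicate 1 and 20590398 for replicate 2. In R2 it was 11246823 for replicate 1 and 8793089 for replicate 2. R1 gives every value below for which no mate is named, CPM scales counts to a total of 1e6 per table, and shares of tRNA counts are over all features of the tRNA biotype. Intervals treat each read as independent and leave out the spread between libraries. Reads amplified by PCR are not all independent molecules, so the intervals are too narrow even for counting error. Copies of a tRNA share sequence, and how reads matching several copies were handled is not stated in the sources read, so values of single genes are uncertain.

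Threonine tRNAs were recovered above their share of genes in both mates, whereas serine tRNAs lay below theirs in R1 and above it in R2. The threonine genes took 11.9% of tRNA counts in replicate 1 and 11.6% in replicate 2, with 95% Clopper-Pearson intervals of 11.93 to 11.96% and 11.60 to 11.63%. Their mean was 11.8% ± 0.235 (SD, n = 2), and they were 4.01% of tRNA genes. The serine genes took 4.59% in replicate 1 (4.58 to 4.60%) and 3.89% in replicate 2 (3.88 to 3.90%), or 4.24% ± 0.496 (SD, n = 2), against 5.1% of tRNA genes. In R2 the serine genes took 6.90% in replicate 1 and 5.97% in replicate 2, both above that share of genes, and the threonine genes took 10.4% and 8.68%. Together the 50 genes took 16.0% ± 0.731 (SD, n = 2). The shares of genes are over the 549 tRNA genes without lookalikes, whereas the shares of counts include lookalikes. With lookalikes left out of the R1 counts too, serine took 4.69% in replicate 1 and 3.98% in replicate 2, still below 5.1%. Threonine then took 12.2% and 11.9%. Among 24 isotype names in the tables threonine ranked 3 and serine ranked 4 in R1 (3 and 5 in R2), and per gene threonine ranked 3 with 90962 counts per gene in replicate 1 and serine ranked 5 with 27458. The next isotype below serine was asparagine at 3.86% ± 0.247 (SD, n = 2), which overlapped serine: its 4.03% in replicate 1 and 3.68% in replicate 2 lie on both sides of the serine value of replicate 2, although serine was higher within each library. With 1 group of 2 libraries no test between isotypes was made.

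Among threonine tRNAs the TGT anticodon, which reads ACA codons, led. The 6 Thr-TGT genes took 7.92% of tRNA counts in replicate 1 and 7.96% in replicate 2, or 67.4% ± 1.62 (SD, n = 2) of the threonine counts. Thr-AGT, with 10 genes, took 2.81% and 2.56% of tRNA counts. Thr-CGT, with 6 genes, took 1.21% and 1.09%. The 3 families did not overlap between libraries.

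Among serine tRNAs the GCT anticodon, which reads the AGC and AGU codons, led. Its 8 genes took 2.88% of tRNA counts in replicate 1 and 2.64% in replicate 2, which was 65.3% ± 3.71 (SD, n = 2) of the serine counts. Ser-TGA, with 4 genes, took 0.989% and 0.644%. Ser-AGA had the most genes, 11, but took 0.480% and 0.367%. The 4 Ser-CGA genes took 0.242% and 0.235%, and the single Ser-ACT gene took 0.000340% and 0.000224%. In the joint order of the families by mean, Ser-GCT and Thr-AGT were next to each other at 2.76% ± 0.167 and 2.68% ± 0.182 (SD, n = 2 each), and their library values overlapped. Every other pair of neighbours in that order had values that did not overlap. The family with the most genes per isotype was not the one with the most counts, and per gene Ser-AGA had 7316 counts in replicate 1 against 60260 for Ser-GCT. That Ser-GCT mean rests on tRNA-Ser-GCT-3-1, which held 333601 of the 482076 Ser-GCT counts in replicate 1. Every other Ser-GCT gene had 42039 counts or fewer.

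**Figure D1:**
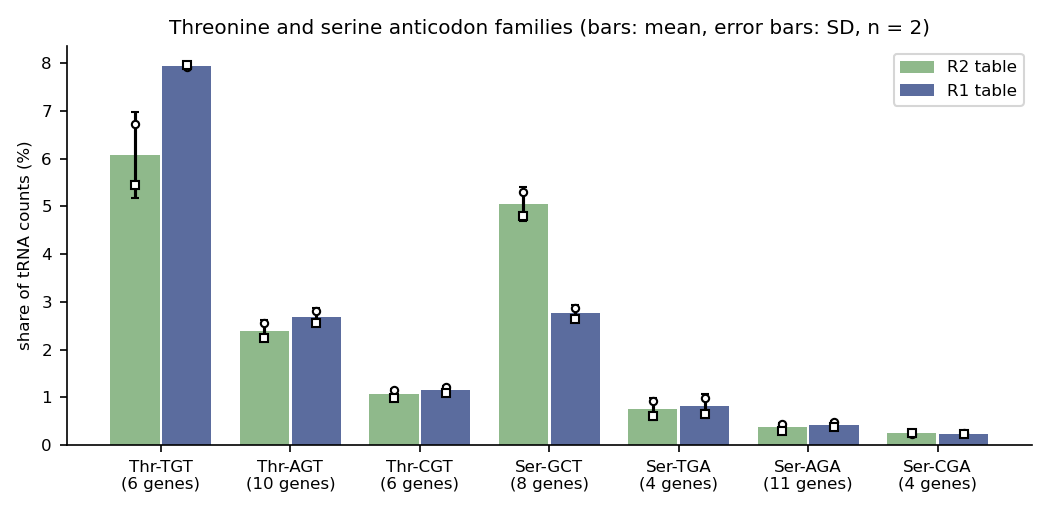
Share of tRNA counts (%) of 7 anticodon families in the R2 and R1 tables, with bars for the mean, error bars for the SD of 2 libraries, circles for replicate 1 and squares for replicate 2. Ser-ACT is left out at under 0.001% in both libraries of both tables. Ser-GCT stands at 5.06% in R2 against 2.76% in R1, and Thr-TGT at 6.08% in R2 against 7.94% in R1.

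In families of several genes, the highest and lowest gene differed by far more than the replicates of a gene. This did not hold for every pair of genes. The 4 plus-strand copies of Ser-AGA-2 had 137 to 160 CPM in replicate 1 and 67.4 to 84.8 CPM in replicate 2. The 3 genes on chromosome 14 between positions 21081949 and 21149921 of hg19, all of the TGT family, held 51.7% ± 1.89 (SD, n = 2) of the threonine counts. tRNA-Thr-TGT-5-1 (21149849 to 21149921, plus strand) stood at 14161 CPM in replicate 1 and 14222 CPM in replicate 2. tRNA-Thr-TGT-4-1 (21099319 to 21099391, minus strand) stood at 11859.6 and 11371 CPM, and tRNA-Thr-TGT-3-1 (21081949 to 21082021, minus strand) at 10119 and 9152 CPM. The 3 did not overlap, and none of them lies inside another listed feature. tRNA-Thr-TGT-2-1 on chromosome 1 (222638347 to 222638419, plus strand) followed at 7148 and 6779 CPM.

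From there the threonine genes formed a gradual slope. tRNA-Thr-TGT-1-1 had 4002 CPM in replicate 1 and 3185 in replicate 2, and tRNA-Thr-AGT-6-1 had 3839 and 3221. These 2 overlapped. tRNA-Thr-CGT-4-1, the highest CGT gene, had 3017 and 2499 CPM. tRNA-Thr-AGT-1-1 (2468 and 2222 CPM), tRNA-Thr-AGT-1-2 (2562 and 2067 CPM) and tRNA-Thr-AGT-5-1 (2550.04 and 2059 CPM) overlapped one another and completed the 10 highest, which together held 86.4% ± 0.456 (SD, n = 2) of the threonine counts. tRNA-Thr-TGT-6-1, the gene printed above, was the lowest of its family at 242 and 185 CPM. At the bottom, tRNA-Thr-CGT-5-1 had 178 counts in replicate 1 and 97 in replicate 2, tRNA-Thr-CGT-6-1 had 14 and 11, and tRNA-Thr-AGT-7-1 had 1 and 0, where a count of 0 allows up to 0.146 CPM. So 22 of 22 threonine genes had a count, and 19 had at least 100 in each library. Having a count was usual for tRNA genes: 39 of 40 lysine and 26 of 31 glutamine genes had one too. Of all 549 tRNA genes, 379 had at least 100 in each.

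Serine counts were led by 1 gene. tRNA-Ser-GCT-3-1 on chromosome 11 (66115591 to 66115672, plus strand) stood at 11954 CPM in replicate 1 and 10409.7 CPM in replicate 2, which was 45.4% ± 2.90 (SD, n = 2) of the serine counts. The next of the 8 Ser-GCT genes in replicate 1, tRNA-Ser-GCT-5-1, reached 1506 CPM. tRNA-Ser-GCT-3-1 lies within RP11-867G23.8, a gene of the antisense biotype that spans 16855 bases on the same strand. The 333642 counts of RP11-867G23.8 in replicate 1 exceeded those of the tRNA by 41, and its 214401 counts in replicate 2 by 61.

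The second serine gene, tRNA-Ser-TGA-2-1 on chromosome 6 (27513468 to 27513549, plus strand), had 4375 CPM in replicate 1 and 2330.2 CPM in replicate 2. It held 13.3% ± 3.71 (SD, n = 2) of the serine counts, with the libraries further apart than for any other gene of the 10 highest. tRNA-Ser-GCT-4-3 (1500.4 and 1276 CPM) and tRNA-Ser-GCT-5-1 (1506 and 1267 CPM) overlapped. tRNA-Ser-GCT-2-1, tRNA-Ser-TGA-1-1, tRNA-Ser-AGA-5-1, tRNA-Ser-CGA-1-1, tRNA-Ser-GCT-1-1 and tRNA-Ser-GCT-6-1 completed the 10 highest, at means between 845 and 463 CPM. Of the 28 serine genes, 27 had a count and 26 had at least 100 in each library, the latter against 379 of all 549 tRNA genes. Having a count was usual in other isotypes too, as given above for lysine and glutamine. tRNA-Ser-ACT-1-1, which RefSeq lists as a pseudogene, had 57 and 26 counts. tRNA-Ser-AGA-6-1 had 0 counts in all 4 tables, which allows up to 0.107 CPM in the R1 table of replicate 1 and 0.146 CPM in that of replicate 2.

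**Figure D2:**
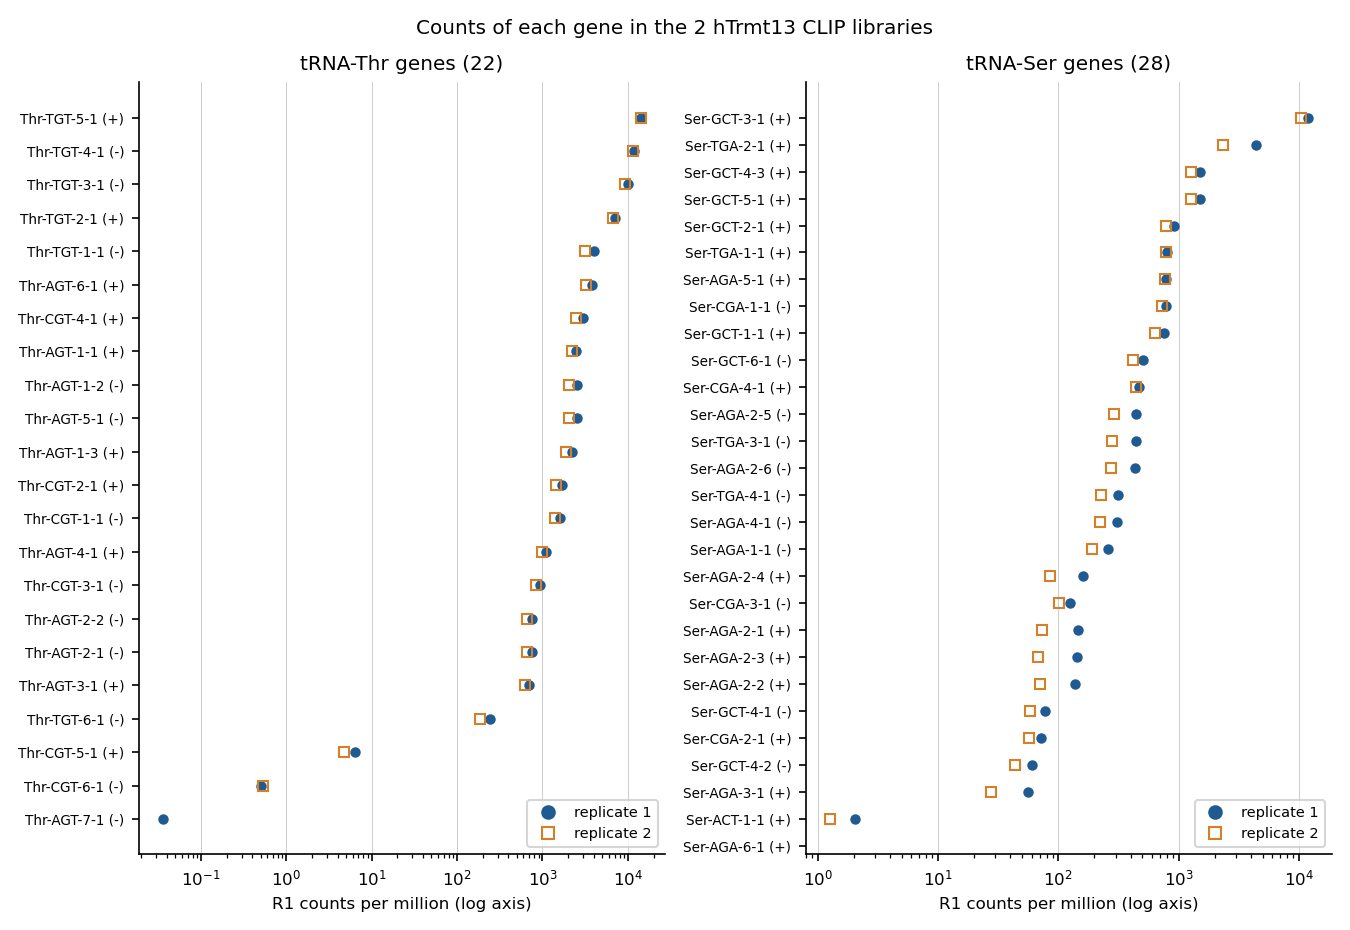
R1 CPM (log axis) of each of the 22 threonine and 28 serine tRNA genes, with the genome strand in brackets; filled circles are replicate 1 and open squares replicate 2, and a count of 0 has no symbol. The highest threonine gene stands at 14161 and 14222 CPM, and the highest serine gene lies apart from the second in both libraries.

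Gene length separated most serine genes from the threonine genes. Threonine genes were 72 to 74 bases long. Of the 28 serine genes, 24 were 82 bases long, 1 was 83 and 1 was 84. The other two were tRNA-Ser-ACT-1-1 at 74 bases and tRNA-Ser-AGA-5-1 at 72 bases, within the range of the threonine genes. tRNA-Ser-AGA-5-1 ranked 7 among the serine genes, at 791 CPM in replicate 1 and 767 CPM in replicate 2. It was the highest Ser-AGA gene. It lies on chromosome 7 within the span of the pseudogene ZNF767, which lies on the other strand and encloses 8 tRNA features.

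Chromosome 6 held 28 of the 50 genes but 22.7% ± 2.13 (SD, n = 2) of their counts. The 3 genes on chromosome 14 took 38.1% ± 2.37 and the 8 on chromosome 17 took 13.1% ± 0.493 (SD, n = 2 each). For serine alone, the 18 genes on chromosome 6 held 34.4% ± 4.19 (SD, n = 2) of the serine counts.

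Several members lie inside or across other listed features, most of which had counts close to the sum of the tRNAs they cover. Overlap was found for 14 of the 50 genes and 12 features, on the other strand for 5 of the genes. Overlaps were looked up for these 50 genes only, so no share over all tRNA genes can be set beside them. CTC1, whose product is part of the telomere-capping CST complex, spans tRNA-Thr-AGT-1-2, tRNA-Ser-AGA-2-6 and another tRNA. Its 101371 counts in replicate 1 exceeded the sum of those 3 tRNAs by 34, and its 61272 counts in replicate 2 exceeded theirs by 56. POM121L2 spans tRNA-Ser-GCT-2-1, tRNA-Ser-ACT-1-1 and tRNA-Thr-CGT-6-1 among 5 tRNA features, and 6 and 11 of its 26246 and 16645 counts were beyond them. The counts of both protein-coding genes were thus nearly equal to those of the tRNAs they enclose. Reads were counted without regard to strand: POM121L2 lies on the minus strand and held the counts of the plus-strand tRNA-Ser-GCT-2-1, and KB-1047C11.2 on the plus strand had 12500 and 5971 counts, against 12469 and 5932 for the minus-strand tRNA-Ser-AGA-2-5 inside it. CEP95, around tRNA-Thr-AGT-7-1, was different, with 131 and 186 counts beyond that tRNA.

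Of the members, 4 overlapped a feature listed as a miRNA, and its counts equalled or nearly equalled those of the tRNA. MIR3676 begins after the first 15 bases of tRNA-Thr-AGT-1-1 and runs 26 bases past its 3′ end. It had 68883 R1 counts in replicate 1 and 45745 in replicate 2, the same as the tRNA gene. AC008738.2 begins after the first 15 bases of tRNA-Thr-AGT-1-3 and had 61218 and 38833 counts, against 61216 and 38832 for the tRNA. AL121932.1, which begins after the first 15 bases of tRNA-Thr-CGT-3-1, had the same 26214 and 17220 counts as that tRNA. The remaining one, at tRNA-Thr-AGT-7-1, had 1 count and 0. The overlap a read needed to be counted is not stated in the sources read. Of the listed piRNA features, 0 overlapped a member.

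The mates did not give the same picture. Counts in R2 were 63.6% to 64.1% of those in R1 for serine and 31.0% to 37.2% for threonine, against 41.5% to 42.7% over all tRNA features. Over 22 isotypes with more than 1000 R1 counts in replicate 1 the mean percentage ran from 6.22% for phenylalanine to 93.8% for selenocysteine, so neither isotype stood at an end of the range. The high serine value belonged to the GCT family, at 78.6% in replicate 1 and 75.5% in replicate 2. The other serine families with at least 1000 counts, TGA, AGA and CGA, lay between 34.2% and 45.6%, and the threonine families lay between 28.4% and 40.2%.

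Within each isotype the mates split by gene. tRNA-Ser-GCT-3-1 had 286588 R2 counts against 333601 R1 counts in replicate 1 and 176816 against 214340 in replicate 2, or 85.9% and 82.5%. tRNA-Ser-GCT-4-2 stood at 84.4% and 86.4%. At the low end, tRNA-Ser-AGA-1-1 stood at 10.5% and 10.3% and tRNA-Ser-GCT-6-1 at 11.3% and 10.5%. Among threonine genes tRNA-Thr-AGT-4-1 stood highest at 130% and 113%, so it had more R2 than R1 counts, followed by tRNA-Thr-TGT-5-1 at 74.8% and 55.1%. tRNA-Thr-TGT-4-1, the second threonine gene in R1, stood at 4.33% and 2.58%, and tRNA-Thr-AGT-5-1 at 4.86% and 5.19%. The order of the TGT genes changed with the mate: tRNA-Thr-TGT-4-1 had 14327 R2 counts in replicate 1, fewer than tRNA-Thr-TGT-1-1 with 44640. The spread between these genes was wider than the gap between the libraries of any of them.

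The low threonine percentages lay on the minus strand of the genome. Among genes with at least 100 R1 counts in each library, the 9 threonine genes on the plus strand had a median of 54.5% in replicate 1 and 49.7% in replicate 2. The 10 on the minus strand had 17.1% and 16.1%. The threonine genes below 20% were 8 in replicate 1 and 7 in replicate 2, and 0 of them lay on the plus strand. Over all 379 tRNA genes with that many counts, 26.4% were below 20% in replicate 1 and 30.3% in replicate 2. These were 41 and 48 of 197 genes on the plus strand and 59 and 67 of 182 on the minus strand. For serine the medians were 59.4% and 64.2% over 15 plus-strand genes and 38.3% and 29.2% over 11 minus-strand genes, with tRNA-Ser-GCT-4-2 on the minus strand among the highest. For the other isotypes they were 40.3% and 37.2% over 173 plus-strand genes against 35.2% and 36.7% over 161 minus-strand genes. The 10 plus-strand threonine genes held 81.0% ± 0.550 of the threonine counts in R2 and 51.2% ± 0.803 in R1 (SD, n = 2 each). The 17 plus-strand serine genes held 93.8% ± 0.576 of the serine counts in R2 and 86.7% ± 0.562 in R1 (SD, n = 2 each). These are descriptions over genes that share sequence, and the cause of the difference between strands was not tested.

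**Figure D3:**
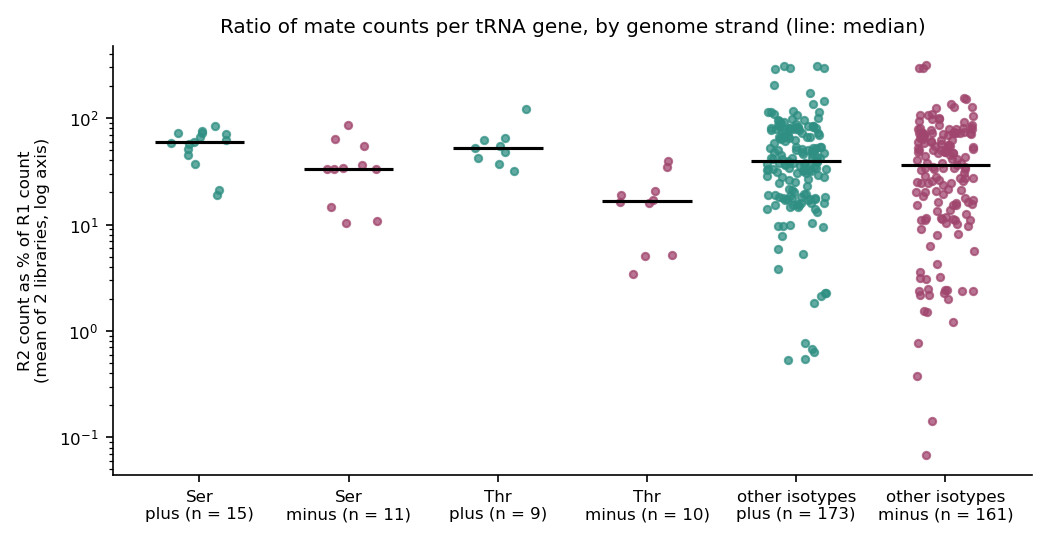
R2 count as a percentage of the R1 count (mean of 2 libraries, log axis) for each tRNA gene with at least 100 R1 counts in each library, by isotype group and genome strand; lines are medians. The threonine genes on the minus strand lie mostly below 20%, and 0 of the 9 threonine genes on the plus strand do.

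Copies that carry the same isodecoder number allowed the strands to be compared within 1 mature sequence. The isodecoder Thr-AGT-1 has tRNA-Thr-AGT-1-1 (chromosome 17) and tRNA-Thr-AGT-1-3 (chromosome 19) on the plus strand and tRNA-Thr-AGT-1-2 (chromosome 17) on the minus strand. In R2 of replicate 1 the plus-strand copies had 39812 and 40063 counts against 3541 for the minus-strand copy, and in replicate 2 they had 23398 and 23195 against 2273. In R1 the same 3 genes had 68883, 61216 and 71513 counts in replicate 1. The plus to minus ratio of mean counts was 11.3 and 10.2 in R2 of the 2 libraries, and 0.910 and 0.994 in R1. As shown above, the stretch printed for tRNA-Thr-AGT-1-3 also occurs unchanged in a transcript of the gene around tRNA-Thr-AGT-1-2.

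The serine isodecoders with several copies split by strand in R1 as well as in R2. Ser-AGA-2 has 6 copies. The 4 on the plus strand had 3816 to 4454 R1 counts in replicate 1 and 1387 to 1747 in replicate 2, and the 2 on the minus strand had 12227 to 12469 and 5682 to 5932. Their plus to minus ratio of mean counts was 0.547 and 0.655 in R2, and 0.331 and 0.263 in R1. Ser-GCT-4 went the other way, with 41874 and 26270 counts for tRNA-Ser-GCT-4-3 on the plus strand, against 2151 and 1209 for tRNA-Ser-GCT-4-1 and 1704 and 905 for tRNA-Ser-GCT-4-2 on the minus strand. Here the plus to minus ratio was nearly the same in both mates, at 23.6 and 24.02 in R2 and 21.7 and 24.9 in R1, so the change with the mate seen in Thr-AGT-1 was not found in Ser-GCT-4. Both copies of Thr-AGT-2 are on the minus strand, and they had 20837 and 20807 counts in replicate 1 and 13593 and 13679 in replicate 2. Copies on opposite strands also differed over all tRNA genes. Of 40 isodecoders with copies on both strands and at least 1000 R1 counts in replicate 1, 33 had strand means more than 1.5-fold apart in replicate 1, with a median ratio of the larger to the smaller of 6.60. Copies on 1 strand differed by a median of 1.07-fold in 57 sets, of which 15 were more than 1.5-fold apart. What separates copies by strand was not tested. The plus strand was the higher one in 21 of the 40.

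**Figure D4:**
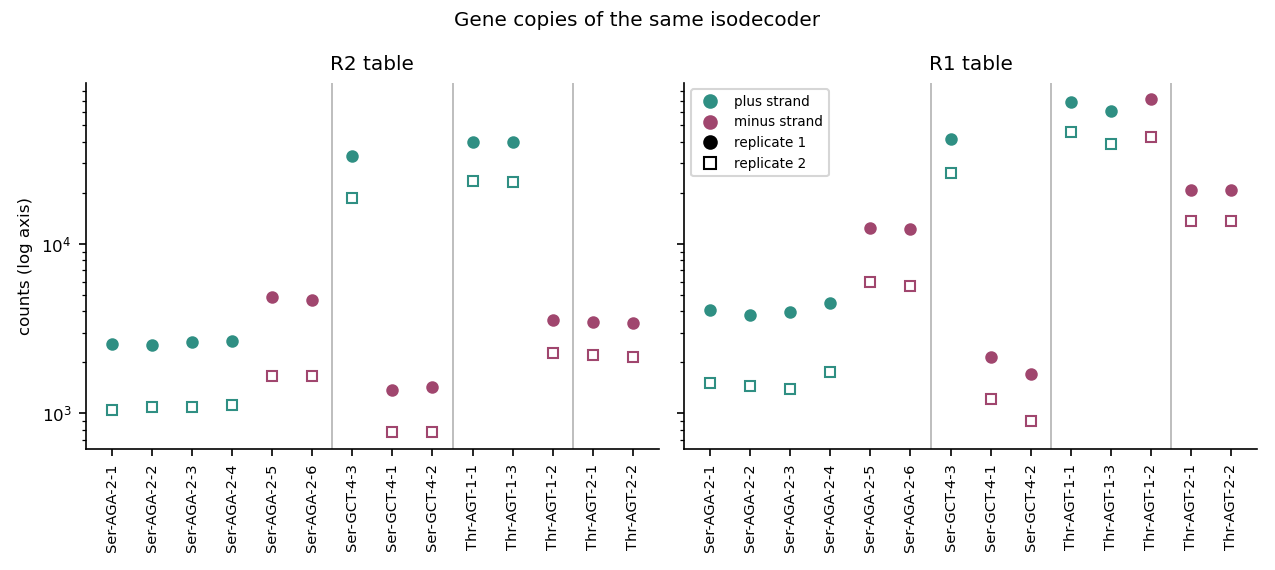
Counts (log axis) of each gene copy of the 4 isodecoders with more than 1 copy, in the R2 and R1 tables, with colour for the genome strand, filled circles for replicate 1 and open squares for replicate 2. Copies of Thr-AGT-1 on the 2 strands lie together in R1 and 11.3-fold and 10.2-fold apart in R2.

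Near-equal counts also joined genes of different isodecoders and even of different anticodons, groups that were chosen after their values were seen. tRNA-Ser-TGA-3-1 on the minus strand had 12422 R1 counts in replicate 1 and 5737 in replicate 2. The Ser-AGA-2 copies on that strand, tRNA-Ser-AGA-2-5 and tRNA-Ser-AGA-2-6, had 12469 and 12227 in replicate 1. Over these 3 genes the highest and lowest counts differed by 1.94% in R1 of replicate 1 and 4.21% in R1 of replicate 2. tRNA-Thr-AGT-5-1 and tRNA-Thr-AGT-1-2, both on the minus strand, had 71166 and 71513 R1 counts in replicate 1 and 42389 and 42561 in replicate 2. In R2, tRNA-Thr-AGT-4-1 had 39738 counts in replicate 1, against 39812 and 40063 for the plus-strand copies of Thr-AGT-1, although in R1 the highest of the 3 was 2.26-fold above the lowest. Whether these genes were counted from the same reads was not tested.

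Among the serine tRNAs the libraries differed most for genes of the AGA and TGA families. With each gene taken as a share of tRNA counts, 7 of 26 serine genes were more than 1.5-fold lower in replicate 2 than in replicate 1, against 2.64% (10 of 379) of all tRNA genes with at least 100 R1 counts in each library. The 7 were tRNA-Ser-AGA-2-1, tRNA-Ser-AGA-2-2, tRNA-Ser-AGA-2-3, tRNA-Ser-AGA-2-4, tRNA-Ser-AGA-3-1, tRNA-Ser-TGA-2-1 and tRNA-Ser-TGA-3-1. None of the 26 was more than 1.5-fold higher, against 5.01% of all. Among only 26 genes, finding none is near that share, so the lack of higher genes is not particular to serine. The ratio of replicate 2 to replicate 1 was lowest for tRNA-Ser-AGA-2-3, at 0.502 with 1387 counts in replicate 2 and 3989 in replicate 1, followed by tRNA-Ser-AGA-3-1 at 0.526. It was highest for tRNA-Ser-TGA-1-1 at 1.05 and tRNA-Ser-AGA-5-1 at 1.03. Just past the bound of 1.5-fold lay tRNA-Ser-TGA-3-1 at 0.667, and just short of it tRNA-Ser-AGA-2-6 at 0.671. Of the 7 genes, 4 are copies of 1 isodecoder, so they are not separate observations, and they are named because their values were seen.

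Of 19 threonine genes, 0 passed 1.5-fold in either direction, against 2.64% lower and 5.01% higher of all 379. With so few genes, 0 of 19 is near those shares. The ratio of replicate 2 to replicate 1 was lowest for tRNA-Thr-TGT-6-1 at 0.811 and tRNA-Thr-TGT-1-1 at 0.847. It was highest for tRNA-Thr-TGT-5-1 at 1.07 and tRNA-Thr-TGT-4-1 at 1.02. The median was 0.799 for the serine genes and 0.942 for the threonine genes, against 1.05 over all 379. The 8 Ser-GCT genes ran from 0.767 to 0.927, which are the lowest and highest values of that family itself. Genes of other isotypes lay in this range as well, such as tRNA-Phe-GAA-1-1 at 0.843 and tRNA-Gln-CTG-1-1 at 0.874.

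**Figure D5:**
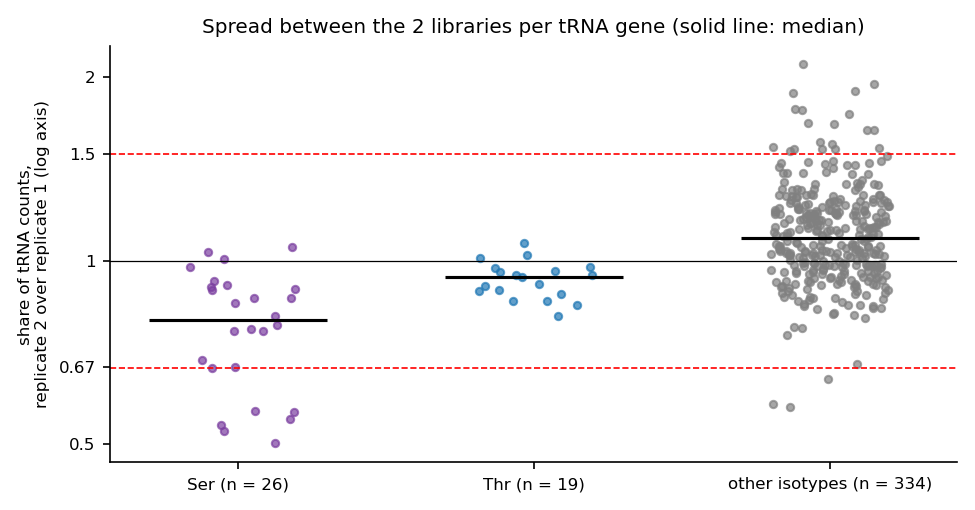
Ratio of a gene's share of tRNA counts in replicate 2 to that in replicate 1 (log axis) for 26 serine, 19 threonine and 334 other tRNA genes; solid lines are medians and dashed lines mark 1.5-fold. The serine genes reach down to 0.502, and the threonine genes stay within 0.811 and 1.07.

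Mitochondria make their own serine and threonine tRNAs. MT-TS2 stood at 1796 CPM in replicate 1 and 1964 CPM in replicate 2, MT-TS1 at 709.9 and 706 CPM, and MT-TT at 46.9 and 52.8 CPM. Mitochondrial serine tRNAs thus had more counts than the threonine one, whereas among the nuclear genes threonine had more.

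Protein-coding genes of tRNA charging and modification gave few counts. A list of 31 symbols, which besides enzymes of serine and threonine tRNAs holds some that act on other tRNAs (SEPSECS, PSTK, CDKAL1 and ADAT1 among them), chosen with earlier results of these data known, matched 30 protein-coding features, with a median of 3.30 CPM against 1.5 CPM over all protein-coding features. Of the 30, all had a mean R1 count of at least 10, as did 65.1% of all protein-coding features. Per kilobase of the listed span, introns included, LAGE3 led with 16.8 counts in replicate 1 and 30.2 in replicate 2. LAGE3 had only 25 and 45 counts over a span of 1.489 kb, and its mean of 1.54 CPM was near the median of all protein-coding features. It encodes a subunit of the KEOPS complex, which with YRDC makes the threonylcarbamoyl adenosine next to the anticodon of tRNAs that read codons starting with A, threonine tRNAs and Ser-GCT among them. SARS, the cytosolic seryl-tRNA synthetase, followed with 9.65 and 14.7 counts per kilobase, then YRDC with 7.44 and 13.5 and TRMT1, a guanosine dimethyltransferase, with 5.92 and 10.4. TARS, the cytosolic threonyl-tRNA synthetase, had 150 and 307 counts, or 5.20 and 10.6 per kilobase. All 30 had a higher CPM in replicate 2 than in replicate 1, as did 98.8% of the 13220 protein-coding features whose mean count reached 10, so this was not particular to the list.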

How the data were processed

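For each of 2 libraries the authors deposited unnormalized whole-number counts of reads over listed features, separately for both mates (4 tables of 741091 lines, of which 13 repeated lines were dropped). Per the labels' protocols, antibody-isolated RNA was dephosphorylated, treated with Alkb enzymes that remove base modifications, ligated to an adaptor, purified by SDS-PAGE, reverse transcribed and amplified by PCR. The submitters' processing notes name bedtools 2.24.0 and Bowtie2 2.3.5.1 with the builds hg19 and GRCh37. No source read states the alignment options or the placing of reads with several matches, which can shift counts between gene copies. The deposited counts show that counting ignored strand, since features on the opposite strand hold the counts of the tRNAs inside them.

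R1 was the main table. Shares, CPM, SD (n = 2) and exact Clopper-Pearson 95% intervals were computed in Python 3.11.15 (with scipy 1.17.1, pandas 2.3.3, numpy 2.4.6, and matplotlib 3.10.9 for figures), and the share functions were tested on simulated data. The single group allowed no test. Of the members, 47 of 50 members matched a RefSeq symbol, 47 of these with the RefSeq length once 1 was added to the deposited start. Starts of the GENCODE features (miRNAs and host genes) were taken as given, since the annotated length of CTC1 fits a start counted from 1. tRNA-Ser-AGA-6-1, tRNA-Thr-CGT-6-1 and tRNA-Thr-AGT-7-1 had no match.

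Genes named are all families, the 10 highest genes per isotype, the 2 highest and 2 lowest in the R2 to R1 ratio and in the ratio between replicates, members overlapping other genes among the highest, MT-TS1, MT-TS2, MT-TT and the 4 highest enzymes per kilobase. TARS, the remaining members and the members overlapping miRNA features were added after their values were seen. The members and lists were chosen with earlier results of these data known. Alternatives were the R2 table, the sum of mates, each replicate left out, other denominators, the highest gene left out and, added after seeing the data, 1 strand only and each isodecoder at its highest copy.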

Additional observations from a re-analysis of the deposited data

How the results depend on the processing

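Of 46 alternatives to the shares, mate percentages and gene numbers other than leaving out a replicate, 16 moved the value by less than the SD between libraries (for gene numbers, by less than 1.5 times) and 30 by more. In the R2 table serine took 6.43%, above its share of genes and not below it as in R1, and threonine 9.55% of tRNA counts, with Ser-CGA at 0.246%, Ser-GCT at 5.06%, Thr-AGT at 2.39% and Thr-TGT at 6.08%. In the sum of both mates serine took 4.89%, threonine 11.1%, Ser-GCT 3.44% and Thr-TGT 7.39%. tRNA-Ser-GCT-3-1 held 59.9% of serine counts in R2 and 51.1% in the sum, and tRNA-Thr-TGT-5-1 held 39.2% and 25.4% of threonine counts. With all counts as denominator serine took 2.47% and threonine 6.86%. Threonine took 12.1% without lookalikes and 15.4% without the highest gene of each isotype. Chosen after seeing the data, each isodecoder at its highest copy gave 4.93% for serine and 13.2% for threonine, plus-strand genes alone gave 8.70% and 14.3%, and minus-strand genes alone 1.02% and 10.3%. R2 as a percentage of R1 was 69.1% over plus-strand and 29.8% over minus-strand serine genes, and 54.0% and 13.3% for threonine. Without the highest gene it was 47.0% for serine and 26.1% for threonine. The cause was not tested. Leaving out 1 replicate gave 3.89 to 4.59% for serine and 11.6 to 11.9% for threonine, and with 2 libraries a mean always stays within 1 SD then, so this is no sign of stability. No paired analysis was possible because the libraries form a single group. Depth limits the 5 genes with under 100 counts in a library.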
